A study of Homo sapiens with 6 samples.

Results

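The ATR checkpoint watches over DNA replication. When a fork stalls, single-stranded DNA coated by RPA recruits the kinase ATR through its partner ATRIP, TOPBP1 switches the kinase on, and the mediator CLSPN (claspin), held at the fork by the TIMELESS and TIPIN pair, brings in the effector kinase CHEK1. ATM and its effector kinase CHEK2 form the parallel arm that answers double-strand breaks, and WEE1 restrains the cyclin-dependent kinases until replication is complete. Messenger RNA of these 10 genes, picked by symbol from the 20683 symbols counted, was compared in HT-1080 cells, a line grown from a human fibrosarcoma. The set was named by function, with earlier results of these data known, and all 10 passed the filter on low counts that left 11391 genes.

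Cells had been exposed for 4 h to SLV-8472-01, described in the series as an inhibitor of the kinase IRAK4 and labelled 5 mM, or to 0.1% DMSO, with 3 libraries in each group. The dose is given as labelled and may be that of a stock. The design text calls the replicates biological without saying what was repeated, so p-values measure the spread between these libraries. The libraries came from a panel that amplifies a part of each transcript by multiplex PCR, so a count reports that part, and levels of different genes were not compared with each other. Totals ran from 7644478 to 11427779 counts in inhibitor libraries and from 12003104 to 15336351 in DMSO libraries (mean ratio 0.677; an exact permutation test, two-sided, gave p = 0.1, the lowest that 3 against 3 can reach). On the second principal component, with 16.8% of the variance, inhibitor replicate 3 lay at -23.6, apart from 13.2 and 9.97 in the other inhibitor libraries. All 9 mesenchymal markers examined exceeded 1 CPM (counts scaled to equal library totals, and in all later values also by TMM factors) in every library. The same held for 2 of 6 epithelial and 0 of 4 endothelial markers. The epithelial ones were the keratins KRT8 (147 to 183 CPM) and KRT18 (88.0 to 115 CPM), and the epithelial cadherin CDH1 had no counts in any library. Of blood cell genes, PTPRC and CD3E had no counts, CD14 had 0 to 2 counts per library in the inhibitor group and 0 to 1 in the DMSO group, and LYZ had 2 to 7 and 2 to 4.

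Of the 10 genes, 4 fell with the inhibitor and 0 rose. CLSPN fell to 44.3% of its DMSO mean, WEE1 to 50.2%, TIPIN to 56% and ATRIP to 61.3%. The kinases ATR, ATM, CHEK1 and CHEK2, the activator TOPBP1 and TIMELESS did not pass the test. Over all tested genes, 10.3% fell and 9.92% rose (edgeR quasi-likelihood test, Benjamini-Hochberg adjusted p under 0.05, the threshold for these words). At that adjusted threshold DESeq2 and limma voom also had 0 of the 10 higher. At an unadjusted p under 0.05 in edgeR, 5 of the 10 were lower and 0 higher, where 17% of all tested genes were lower and 16.3% higher. The median log2 fold change of the 10 genes was -0.33, and that of all tested genes was 0.00. Scaling by library totals alone turned the split over all genes to 831 that rose and 1714 that fell, against 1130 and 1168 in the reported fit. The inhibitor libraries were the shallower ones, and with every library thinned to the same total the log2 fold changes were -1.23 for CLSPN, -1.03 for WEE1, -0.85 for TIPIN and -0.75 for ATRIP. RNA came from whole cultures, so fewer cells that hold a transcript and less of it per cell cannot be told apart.

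**Figure D1:**
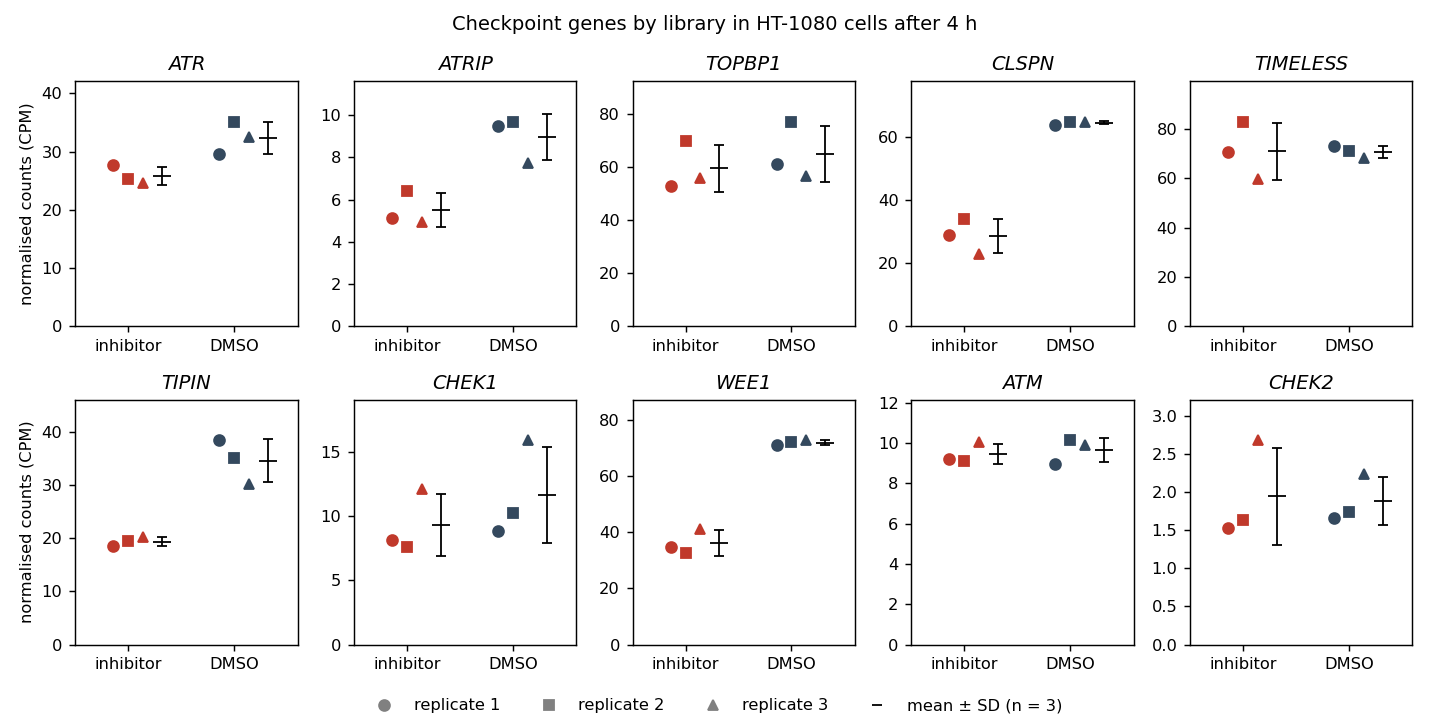
Normalised counts (CPM, linear axis from 0, a separate scale for each gene) of the 10 checkpoint genes in the 3 inhibitor and 3 DMSO libraries, with the mean and SD beside the points. In CLSPN, WEE1, TIPIN, ATRIP and ATR every inhibitor library lies below every DMSO library, and in the other 5 genes the groups overlap.

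The starts of these genes are shown first, because E2F transcription factors drive many genes needed for replication and bind near such starts. The stretches below run from 100 bases before the annotated start through the first 20 bases from it, read from RefSeq on GRCh38.p14, a later build than the hg19 named for the counts. CLSPN and TIPIN are shown as genes that fell and hold a match to the E2F motif, ATRIP as one that fell and holds none, and TOPBP1 as one that holds a match and was not called. Capitals mark the match, searched on both strands as TTTCCCGC, TTTGGCGC, TTTCGCGC or TTTGCCGC.
CLSPN, chr1:35769959-35770078, minus strand: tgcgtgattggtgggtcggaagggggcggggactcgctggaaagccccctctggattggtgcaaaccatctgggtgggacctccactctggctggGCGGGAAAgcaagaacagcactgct
TIPIN, chr15:66356666-66356785, minus strand: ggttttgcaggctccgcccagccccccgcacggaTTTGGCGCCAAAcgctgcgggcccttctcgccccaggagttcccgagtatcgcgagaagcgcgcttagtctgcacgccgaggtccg
ATRIP, chr3:48446637-48446756, plus strand: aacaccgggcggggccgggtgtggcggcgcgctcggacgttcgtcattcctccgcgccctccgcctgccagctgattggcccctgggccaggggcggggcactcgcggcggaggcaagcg
TOPBP1, chr3:133661922-133662041, minus strand: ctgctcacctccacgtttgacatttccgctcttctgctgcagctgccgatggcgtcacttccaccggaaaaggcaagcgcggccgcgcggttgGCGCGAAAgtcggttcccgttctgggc

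Windows of 300 bases, 250 before and 50 from the start on, were searched for 9 of the 10 genes, all but WEE1, at 14 annotated starts. The E2F motif was found in 3 of these 9 genes, against 3.99% of the 27305 genes of the table. By window it was found in 3 of 14, against 3.31% of all windows. The 27305 genes include ones not tested here, and no motif share was matched for base composition. Counting the first base of the gene as 0, the match of CLSPN spans -5 to 2 and that of TOPBP1 -7 to 0. In TIPIN, matches on both strands overlap, from -66 to -59 and from -62 to -55, and form the palindrome in capitals above. A second annotated start of TIPIN held no E2F match. The CCAAT box (CCAAT, either strand), bound by the factor NF-Y, was found in 7 of the 9 genes and in 39.7% of all genes. The cell cycle element CHR (TTTGAA, either strand) was found in ATM alone of the 9, and in 18.2% of all genes. A match is a run of letters and no evidence of binding, and the genes with an E2F match comprise 2 that fell and 1 that was not called.

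**Figure D2:**
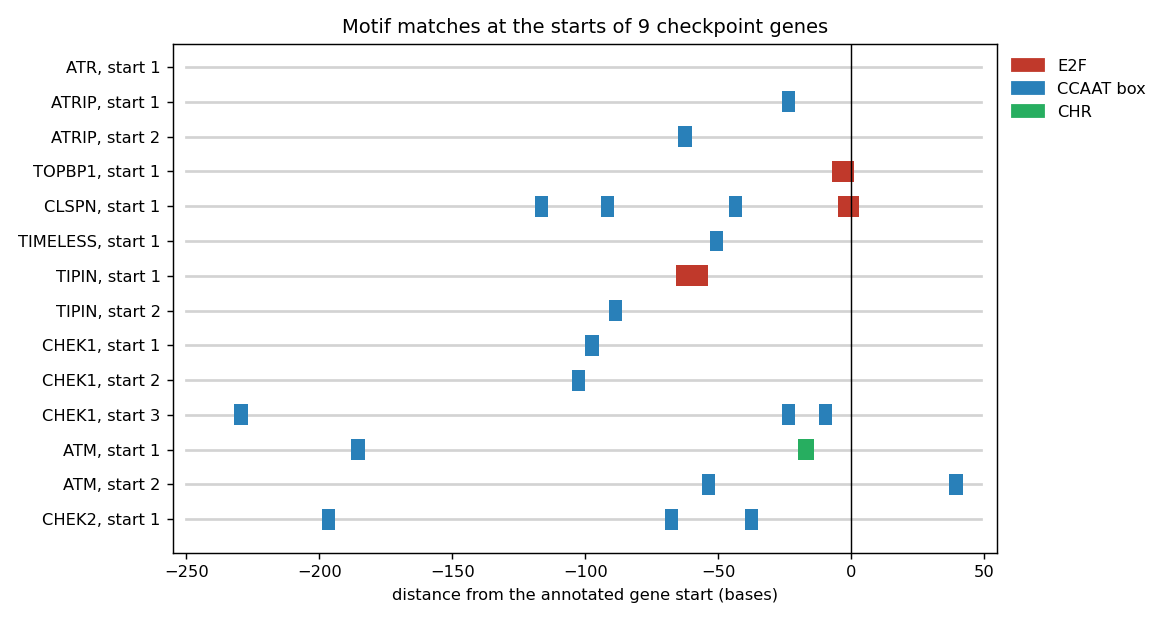
Matches to 3 motifs in the 300-base windows around 14 annotated starts of 9 checkpoint genes, plotted by distance from the start in bases (0 is the first base of the gene). E2F matches lie in CLSPN, TOPBP1 and 1 start of TIPIN, and CCAAT boxes in 7 genes.

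CLSPN encodes claspin, the adaptor through which ATR phosphorylates CHEK1. It had 28.9, 33.9 and 22.9 CPM in the inhibitor libraries and 64.0, 64.8 and 64.8 CPM in the DMSO libraries. The DMSO libraries were nearly level and the inhibitor libraries were all far below them, the lowest being replicate 3. The log2 fold change was -1.17 ± 0.13 (SE, 95% interval -1.43 to -0.91, edgeR adjusted p = 6.90e-07), the largest fall of the 10 genes and rank 53 from the largest fall among all tested genes. Without inhibitor replicate 3 it was -1.04 (edgeR adjusted p = 1.49e-06).

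WEE1, the kinase that places an inhibitory phosphate on cyclin-dependent kinases, had 34.5, 32.5 and 41.3 CPM in the inhibitor libraries, against 70.9, 72.0 and 72.6 CPM in the DMSO libraries. Each inhibitor library had well below the lowest DMSO value, and replicate 3 was here the highest of the inhibitor group. The log2 fold change was -0.997 ± 0.11 (SE, 95% interval -1.23 to -0.76, edgeR adjusted p = 1.62e-06). Only 0.852% of the tested genes had a lower log2 fold change.

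TIPIN binds TIMELESS and ties the pair to RPA. It had 18.6, 19.5 and 20.2 CPM in inhibitor libraries, against 38.5, 35.3 and 30.3 CPM in DMSO libraries. Here the inhibitor libraries were tightly grouped and the DMSO libraries more spread, with no overlap. The log2 fold change was -0.84 ± 0.13 (SE, 95% interval -1.10 to -0.58, edgeR adjusted p = 5.08e-05).

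TIMELESS itself had 70.6, 83.0 and 59.8 CPM with the inhibitor and 73.0, 71.3 and 68.2 CPM with DMSO. The inhibitor libraries lay both above and below the DMSO libraries. Its log2 fold change was 0.01 (95% interval -0.23 to 0.25, edgeR adjusted p = 0.97), an interval that covers anything from a 0.85-fold to a 1.19-fold level, and its sign turned under several alternatives. The count of TIPIN relative to TIMELESS in the same library, a ratio that needs no scaling, was 0.263, 0.235 and 0.339 with the inhibitor and 0.528, 0.495 and 0.445 with DMSO. The ratios did not overlap between groups, with a difference in mean log2 ratio of -0.82 (exact permutation test, two-sided, p = 0.1, the lowest possible, and 0.2 adjusted over 5 such pairs).

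ATRIP, the subunit that brings ATR to RPA-coated DNA, had 5.11, 6.42 and 4.96 CPM in the inhibitor libraries and 9.48, 9.69 and 7.73 CPM in the DMSO libraries. The groups did not overlap, although raw counts were low, at 57, 59 and 37 against 149, 150 and 93. The log2 fold change was -0.71 ± 0.18 (SE, 95% interval -1.09 to -0.33, edgeR adjusted p = 0.00812). TREX1, an exonuclease gene that overlaps ATRIP on the same strand in GENCODE 29, averaged 2.34 ± 0.141 CPM with the inhibitor and 2.62 ± 0.443 CPM with DMSO (SD, n = 3) and was not called (edgeR adjusted p = 0.716). How reads in the shared part were assigned is not given in the sources used here.

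ATR had 27.6, 25.4 and 24.6 CPM with the inhibitor and 29.6, 35.1 and 32.5 CPM with DMSO. All inhibitor libraries were below all DMSO libraries, by little in the case of replicate 1 of each group. The difference missed the threshold, with a log2 fold change of -0.32 ± 0.12 (SE, 95% interval -0.57 to -0.07, edgeR adjusted p = 0.0597). It passed when scaled by library totals (adjusted p = 0.0222), at equal depth after thinning (0.0315) and when DMSO replicate 1 was left out (0.0493). Counted with ATR, 5 of the 10 genes had every inhibitor library below every DMSO library, where 18.7% of all tested genes did.

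The ratio of ATRIP to ATR counts was 0.185, 0.253 and 0.201 in inhibitor libraries and 0.32, 0.276 and 0.238 in DMSO libraries. These ranges overlapped, so a larger fall of ATRIP than of ATR was not shown (difference in mean log2 ratio -0.39, two-sided exact permutation p = 0.2). ATR relative to ATM was 2.99, 2.77 and 2.45 with the inhibitor and 3.30, 3.46 and 3.29 with DMSO. In this pair the groups did not overlap (difference in mean log2 ratio -0.29, two-sided exact permutation p = 0.1, adjusted 0.2).

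TOPBP1, which activates ATR, had 52.9, 69.7 and 55.7 CPM with the inhibitor and 61.0, 77.0 and 56.8 CPM with DMSO. Replicate 2 was the highest of both groups and the groups overlapped. Its log2 fold change was -0.13 (95% interval -0.39 to 0.14, edgeR adjusted p = 0.516). The interval does not hold a fall as large as those estimated for CLSPN, WEE1, TIPIN or ATRIP.

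CHEK1, the effector kinase downstream of claspin, had 8.16, 7.62 and 12.1 CPM with the inhibitor and 8.85, 10.2 and 15.9 CPM with DMSO. Replicate 3 was the highest in both groups, and the spread within a group exceeded the difference between them. The log2 fold change was -0.33 ± 0.21 (SE, 95% interval -0.76 to 0.10, edgeR adjusted p = 0.277), and it was -0.54 without inhibitor replicate 3 (adjusted p = 0.0773) and -0.06 without DMSO replicate 3 (0.876). A level as low as 0.589-fold therefore remains inside the interval. STT3A, a gene that overlaps CHEK1 on the same strand, averaged 205 ± 27.6 CPM with the inhibitor and 204 ± 25.4 CPM with DMSO (SD, n = 3).

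The CLSPN to CHEK1 ratio was 3.54, 4.46 and 1.90 in inhibitor libraries, against 7.23, 6.35 and 4.08 in DMSO libraries. The highest inhibitor ratio exceeded the lowest DMSO ratio, so the ranges overlapped (difference in mean log2 ratio -0.88, two-sided exact permutation p = 0.2).

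ATM had 9.24, 9.14 and 10.05 CPM with the inhibitor and 8.98, 10.1 and 9.89 CPM with DMSO. The ranges were nearly the same, with a log2 fold change of -0.03 (95% interval -0.36 to 0.29, edgeR adjusted p = 0.909). NPAT, a regulator of histone gene transcription that overlaps ATM on the opposite strand, fell. It averaged 18.3 ± 0.863 CPM with the inhibitor and 27.2 ± 2.94 CPM with DMSO (SD, n = 3; log2 fold change -0.58 ± 0.13, SE, edgeR adjusted p = 0.00277).

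CHEK2, the effector kinase of ATM, had few counts, 17, 15 and 20 in inhibitor libraries and 26, 27 and 27 in DMSO libraries. These were 1.52, 1.63 and 2.68 CPM with the inhibitor and 1.66, 1.74 and 2.24 CPM with DMSO. The groups overlapped after scaling. At this depth the interval of the log2 fold change ran from -0.63 to 0.67 (estimate 0.02, edgeR adjusted p = 0.967), so levels from 0.646-fold to 1.6-fold could not be told from no difference. The ratio of CHEK1 to CHEK2 was 5.35, 4.67 and 4.50 with the inhibitor and 5.35, 5.85 and 7.07 with DMSO, and the ranges overlapped (difference in mean log2 ratio -0.33, two-sided exact permutation p = 0.2).

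**Figure D3:**
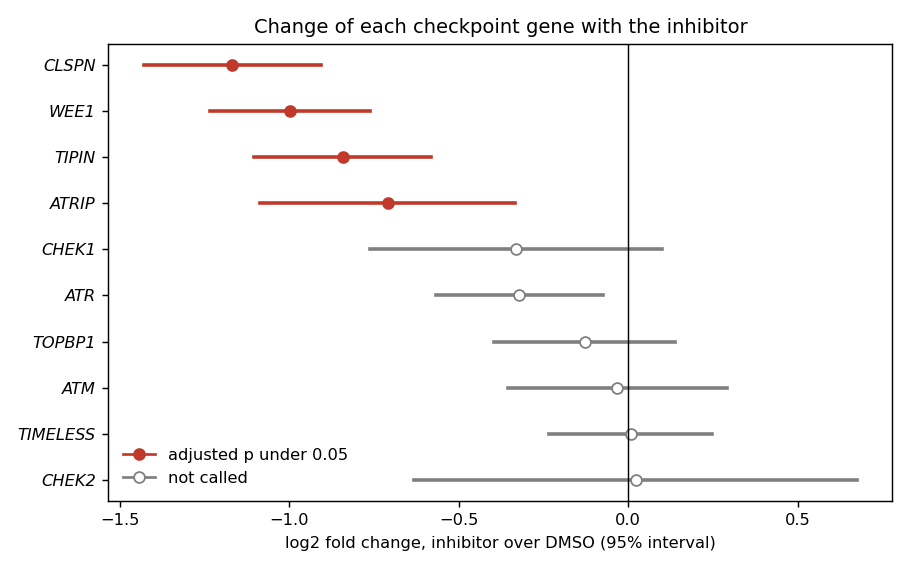
log2 fold change of the 10 checkpoint genes, inhibitor over DMSO, with 95% intervals from the edgeR fit; filled red points passed an adjusted p of 0.05. CLSPN, WEE1, TIPIN and ATRIP lie between -1.17 and -0.71, and the widest interval is that of CHEK2.

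**Figure D4:**
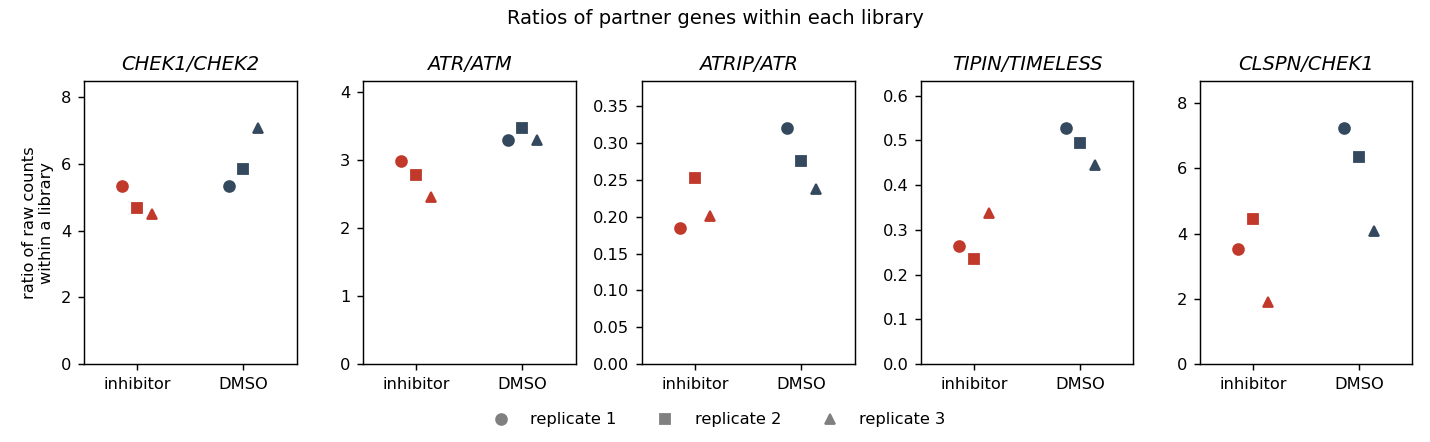
Ratio of raw counts of 2 partner genes within each library (linear axes from 0), for 5 pairs in 3 inhibitor and 3 DMSO libraries. The groups are apart for ATR/ATM and TIPIN/TIMELESS and overlap for CHEK1/CHEK2, ATRIP/ATR and CLSPN/CHEK1.

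Over the 6 lists of other genes in the pathway, 22 of 66 tested genes fell and 0 rose, with a median log2 fold change of -0.22, against 10.3% that fell and a median of 0.00 over all genes. At the same adjusted threshold, DESeq2 and limma voom had 0 higher. At an unadjusted p under 0.05, edgeR had 27 lower and 1 higher (ZRANB3), where 17% of all tested genes were lower and 16.3% higher. In 54 of the 66 the log2 fold change was below 0, against 49.6% of all tested genes.

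Upstream of the kinases, RPA coats single-stranded DNA and the RAD9A, RAD1 and HUS1 clamp is loaded by RAD17 with RFC subunits. Of 12 tested genes in this list, 6 fell and 0 rose (median log2 fold change -0.35). RFC3, a subunit of the clamp loader, fell to 58.0 ± 10.5 CPM with the inhibitor, against 101 ± 9.10 CPM with DMSO (SD, n = 3; log2 fold change -0.80 ± 0.12, SE, edgeR adjusted p = 7.66e-05). The clamp genes RAD9A and RAD1 fell by 0.54 and 0.53 on the log2 scale, a call that RAD9A lost without inhibitor replicate 2 (edgeR adjusted p = 0.0739) or DMSO replicate 3 (0.0558). The third clamp gene, HUS1, was at -0.04 and RAD17 at 0.23, neither called. ETAA1, the activator of ATR that works beside TOPBP1, was at 0.38 and not called (edgeR adjusted p = 0.202). In ETAA1 and RAD17 every inhibitor library lay above every DMSO library. RPA1 and RPA2 fell, with log2 fold changes of -0.30 and -0.52 (edgeR adjusted p = 0.0342 and 0.00327). RFC2 fell as well (-0.43, edgeR adjusted p = 0.012), and RFC4 and RFC5 were not called. RPA3 had no count in any library (3 counts would be 0.191 CPM in the deepest library and 0.402 CPM in the shallowest). For RPA3, little mRNA cannot be told apart from a part that the panel did not amplify.

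Among fork protection and replisome partners, 6 of 12 fell and 0 rose (median log2 fold change -0.28). MCM10, which helps to start and hold replication forks, fell to 52.2 ± 2.63 CPM with the inhibitor, against 117 ± 7.31 CPM with DMSO (SD, n = 3; log2 fold change -1.16 ± 0.11, SE, edgeR adjusted p = 5.52e-08). DONSON, a replisome factor, and WDHD1, a fork scaffold, fell by 0.70 and 0.55 on the log2 scale. The call of WDHD1 was lost without inhibitor replicate 1 (edgeR adjusted p = 0.115) or DMSO replicate 3 (0.107), and 3 genes of this list fell without either. The fork remodellers ZRANB3 and SMARCAL1 were at 0.59 and 0.25 and were not called (edgeR adjusted p = 0.0529 and 0.277). Both are named after their values were seen. In ZRANB3 every inhibitor library lay above every DMSO library. Over the 6 lists together, 32 of 66 tested genes had no overlap between groups, in either direction, against 4140 of all 11391 tested genes. SMARCAL1 passed without inhibitor replicate 3 (log2 fold change 0.42, adjusted p = 0.0377).

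Of 12 genes that the checkpoint acts on at mitotic entry, 5 fell and 0 rose (median log2 fold change -0.24). The phosphatase CDC25A, a substrate of CHEK1 that removes the phosphate WEE1 adds, fell to 11.9 ± 2.08 CPM with the inhibitor, against 31.2 ± 2.82 CPM with DMSO (SD, n = 3; log2 fold change -1.41 ± 0.14, SE). PKMYT1, the membrane-bound relative of WEE1, fell to 5.67 ± 0.40 CPM with the inhibitor, against 11.5 ± 2.56 CPM with DMSO (log2 fold change -1.01 ± 0.19, SE, edgeR adjusted p = 5.59e-04). The mitotic kinase AURKA fell by 0.75 on the log2 scale. Both listed kinases that restrain CDK1, WEE1 and PKMYT1, thus fell, and so did 1 of the 3 CDC25 phosphatases. CDC25B and CDC25C were at -0.18 and -0.20 and were not called, and neither was cyclin B1 (CCNB1, -0.01). The other genes of this list that fell were cyclin A2 (CCNA2, -0.55, edgeR adjusted p = 0.00134) and CDK2 (-0.32, 0.0263). CDC25B, CDC25C, CCNB1, CCNA2 and CDK2 are named after their values were seen.

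Of 10 genes of double-strand break sensing with ATM, 4 fell and 0 rose (median log2 fold change -0.23). The ubiquitin ligase genes RNF168 and RNF8, which mark chromatin at breaks, fell by 0.71 and 0.53 on the log2 scale, and H2AFX, the histone variant gene whose product ATM phosphorylates, fell by 0.63. H2AFX had 85.1 ± 8.62 CPM with the inhibitor and 132 ± 4.74 CPM with DMSO (SD, n = 3; edgeR adjusted p = 2.06e-04).

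Of 7 genes of the PIKK family, to which ATM and ATR belong, and of the TTT complex that stabilises these kinases, 0 fell and 0 rose (median log2 fold change -0.20). The smallest p was that of MTOR (log2 fold change -0.29, edgeR adjusted p = 0.0855), the 1 gene of the list with an unadjusted p under 0.05. It passed with library totals (adjusted p = 0.0323) and without DMSO replicate 3 (0.037), and not with DESeq2 or limma voom. Of 13 genes of turnover and recovery, 1 fell and 0 rose (median log2 fold change -0.22). The share to set beside both lists is that of all tested genes, of which 10.3% fell and 9.92% rose. The gene that fell was CUL1, the scaffold of the ligase that degrades claspin and WEE1. Its log2 fold change was -0.32 ± 0.11 (SE, edgeR adjusted p = 0.0342). The call was lost when any one of inhibitor replicates 1 to 3 or DMSO replicates 1 and 2 was left out (adjusted p from 0.055 to 0.129). It was also lost in thinned libraries (0.126).

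**Figure D5:**
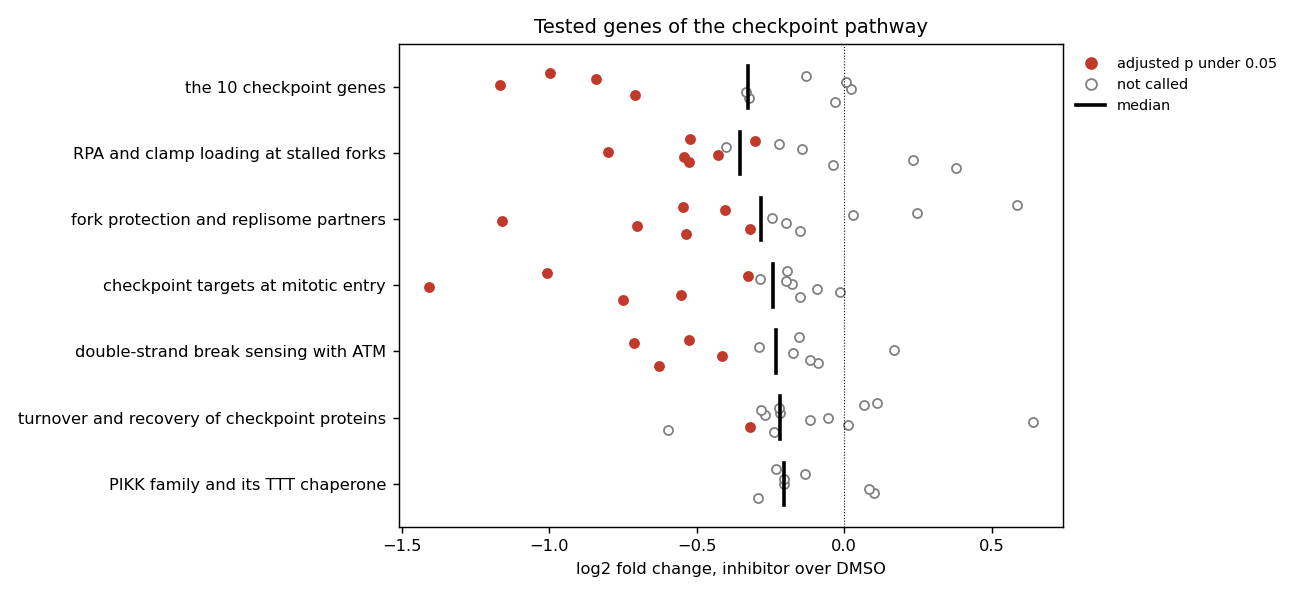
log2 fold change, inhibitor over DMSO, of each tested gene among the 10 checkpoint genes and in 6 lists of the pathway; filled points passed an adjusted p of 0.05 and the bar is the median. Medians lie between -0.35 and -0.20, and no filled point lies above 0.

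The profiles closest to CLSPN and to WEE1 over the 6 libraries were looked up among 9227 other genes of at least 5 CPM, by the Euclidean distance of centred log2 CPM. For CLSPN they were SRSF10 (distance 0.222), RBL1 (0.224) and STRIP2 (0.226), and for WEE1 they were GLCCI1 (0.133), ZNF714 (0.176) and SYNM (0.212). SRSF10, a splicing factor gene, had a log2 fold change of -1.20 and RBL1, a relative of the retinoblastoma gene, of -1.06, beside -1.17 for CLSPN. GLCCI1 was at -0.95 beside -0.997 for WEE1. The distance takes in the difference between the groups, so similar fold changes follow from the choice and are no separate result.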

How the data were processed

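RNA of HT-1080 cells was measured as 6 Ion AmpliSeq Transcriptome libraries with an Ion Proton sequencer, per the labels' protocols. The deposited files hold raw read counts per gene symbol, 1 table per library. HTSeq, DESeq2 1.20.0 and hg19 are named, without roles, in the submitters' processing notes. The aligner and strand setting were not given in the sources used here. Without strand, reads of a gene and an antisense partner cannot be told apart. Reads carried no molecular identifiers, so counting error leaves out PCR duplication.

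Groups and replicate numbers came from the titles. Counts were tested in R 4.3.3 with edgeR 4.0.16 (filterByExpr, TMM, glmQLFit, glmQLFTest, inhibitor minus DMSO), with Benjamini-Hochberg adjustment over all 11391 tested genes and a call at 0.05. CPM are normalised counts with TMM factors, and each SE is the log2 fold change over the square root of F. No 2 replicates agreed within sampling noise (chi-square over its degrees of freedom 9.32 to 14.7). Named genes are the 10 members, up to 3 called genes of each list with the largest fold change or the 1 with the smallest p, and the 3 profiles nearest to the 2 members that changed most. Other genes described in a list illustrate the members of a complex and were chosen with their values seen. TREX1, STT3A and NPAT, outside these rules, are named because they overlap a member. Other counted genes that overlap a member, such as HSCB and SCARNA14, are not described. The members and lists were chosen with earlier results of these data known. The procedure was tested on simulated counts. There it called 50% of 48 genes changed by 0.5 on the log2 scale and 92% of 50 changed by 1. Of 170 calls, 5 were false. Alternatives were other scalings and filters, DESeq2 1.42.0, limma 3.58.1 (voom), a replicate block, thinned libraries, and each library left out. Promoter windows are from RefSeq (GRCh38.p14).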

Additional observations from a re-analysis of the deposited data

How the results depend on the processing

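CLSPN, WEE1, TIPIN and ATRIP kept their direction and call in each of the alternatives in which they were tested; ATRIP, at under 10 CPM on average, was not tested with a minimum of 10 CPM. Over these alternatives the log2 fold change ran from -1.31 to -1.04 for CLSPN, from -1.10 to -0.93 for WEE1, from -0.93 to -0.76 for TIPIN and from -0.84 to -0.65 for ATRIP. The number of the 10 genes that fell was 3 to 5. Leaving out 1 library gave 684 to 1133 genes that rose and 721 to 1113 that fell over all genes, the lowest of both without DMSO replicate 2, and 0 to 1 and 15 to 20 in the 6 lists together. The sign of 4 uncalled genes turned. TIMELESS was at -0.0646 with library totals, -0.0090 without a filter, -0.0035 with the replicate block, -0.0030 with limma voom, -0.0115 in thinned libraries, and -0.12 to 0.11 with 1 library left out. CHEK2 was at -0.0493 with library totals and between -0.24 and 0.18 with 1 library left out, ATM at 0.0088 in thinned libraries and between -0.0876 and 2.38e-04 with 1 library left out, and TOPBP1 between -0.26 and 0.0074 with 1 library left out, positive without DMSO replicate 2 in both. The cause was not tested. The replicate numbers did not pair the libraries (correlation of deviations -0.02 to 0.03 for equal numbers), and the block, with 1086 genes that rose and 1137 that fell, changed no call among the 10 genes. For the partner ratios, pairing by number leaves the difference of means as it is by construction (-0.82 for TIPIN to TIMELESS), and its exact sign-flip p was 0.25, the lowest that 3 pairs allow. With 1 library left out the log2 ratio difference of TIPIN to TIMELESS ran from -0.97 to -0.71, and from -0.36 to -0.22 for ATR to ATM, -0.52 to -0.28 for ATRIP to ATR, -0.41 to -0.21 for CHEK1 to CHEK2 and -1.14 to -0.53 for CLSPN to CHEK1. Depth limits CHEK2 most, at 15 to 27 counts per library.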
